A study of Mus musculus with 8 samples.

Results

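The genes of polyamine synthesis and turnover were followed in a mouse pre-B cell line: Srm, Odc1, Sms, Amd1, Sat1, Oaz1, Oaz2, Azin1, Smox and Paox. They were chosen by name, as all array probes carrying 1 of these gene names, and 8 of the 10 names stood in the files. Oaz2 was reached through its accession, since its 2 probes bear the name Oaz2-ps. Amd1 was reached through 3 probes named Amd2, a closely related gene, 2 of which also list the Amd1 accession. These 2 genes cannot be told apart here and are written Amd1/Amd2. In all, 24 of 55623 probes belonged to the 10 genes. A probe was kept when both arrays of some group gave it a signal well above background. This left 22 of the members' probes among 29807 in all, and 9 members among 20674 genes tested. Smox, the spermine oxidase, was not tested, because its 2 probes were well above background on 0 and 1 of the 8 arrays.

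RNA was measured on 8 single-colour Agilent arrays in the line called 1676, pre-B cells of genotype SLP-65-/- LAT-/-, so that all groups lack 2 adaptor proteins of pre-B-cell receptor signalling. The cells had been infected with a retroviral vector, either the control or one for hsa-miR-125b, and selected with puromycin. They were either kept in excess IL-7, the cytokine on which they grow, or left without it for 24 h. Each of the 4 groups held 2 arrays (n = 2), and the series states that the 2 repetitions used cell clones generated independently. The groups are control with IL-7, miR-125b with IL-7, control without IL-7 and miR-125b without IL-7. All values come from this single cell line under enforced expression of the microRNA.

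Polyamines (putrescine, spermidine and spermine) are small positively charged molecules that bind RNA and are needed for growth and translation. Ornithine decarboxylase makes putrescine, and spermidine synthase and spermine synthase extend it with groups donated by decarboxylated S-adenosylmethionine, the product of the Amd1 enzyme. Antizymes, themselves induced by polyamines, send ornithine decarboxylase to the proteasome, the antizyme inhibitor frees it, and the acetyltransferase Sat1 with the oxidases Paox and Smox runs the pathway backwards. Odc1 and Srm are textbook target genes of the transcription factor Myc, and IL-7 is a growth signal for B-cell precursors.

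The microRNA and the promoters of 2 members are shown first, since the comparisons turn on the microRNA and on genes often described as Myc targets. The RefSeq entry for the mouse microRNA (GRCm38.p6, chr9:41581940-41581961 and chr16:77646279-77646300, plus strand) has 22 bases, and capitals mark its seed, bases 2 to 8.
mmu-miR-125b-5p: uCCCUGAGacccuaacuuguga
RefSeq promoters were found for 8 of the 10 genes, in 10 windows of the 250 bases before a transcription start (GRCm38.p6). The E-box searched was CACGTG, the motif Myc and Max bind, which is its own reverse complement, and the GC box was GGGCGG, searched on both strands. Capitals mark GC boxes in the Odc1 window (chr12:17544623-17544872, plus strand) and the E-box in one of the Sms windows (chrX:157492288-157492537, minus strand).
Odc1 promoter: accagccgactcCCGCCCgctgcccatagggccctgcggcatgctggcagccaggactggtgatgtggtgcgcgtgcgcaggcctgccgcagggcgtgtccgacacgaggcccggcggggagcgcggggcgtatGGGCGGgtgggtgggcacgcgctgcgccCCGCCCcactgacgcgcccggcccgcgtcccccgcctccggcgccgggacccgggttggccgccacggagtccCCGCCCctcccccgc
Sms promoter: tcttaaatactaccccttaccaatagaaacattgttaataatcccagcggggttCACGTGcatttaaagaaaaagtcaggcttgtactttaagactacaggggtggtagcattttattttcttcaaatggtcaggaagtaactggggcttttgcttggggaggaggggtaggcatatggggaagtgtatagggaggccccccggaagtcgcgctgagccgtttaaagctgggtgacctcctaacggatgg
An E-box was present in 1 of the 10 windows, that of Sms, starting 196 bases before the transcription start. Over 32851 promoters of the same length, 6.02% held one. The Odc1 window held 4 GC boxes and no E-box. Of the 8 members, 7 had at least 1 GC box in some window, while 32.7% of all single promoter windows held one. Sms and Paox had 2 windows each, so the member count and that share differ in unit. The Sms window shown and the Oaz1 window held no GC box. TATAAA, searched on both strands, was in no member's window, against 12.4% of all promoters. These matches describe the letters in these windows only. The promoters of Srm and Azin1 were not in the table.

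Values are log2 signals relative to the 75th percentile of the same array, so they can be compared across arrays for 1 gene but not between genes. Each array detected 47.7% to 54.8% of probes, fewest in replicate 1 of control without IL-7, and no spot was saturated (0 in all). One slide, scanned at one time, held all arrays with IL-7 and another held all those without, so that the effects of withdrawal, slide and scan cannot be told apart. Vectors were compared within a slide, where vector cannot be told apart from array position. All 12 pre-B markers checked, among them Cd79a, Pax5, Vpreb1 and Igll1, were well above background in every group. Blnk and Lat, which encode the adaptors missing by genotype, were among them. Which part of each gene is deleted is not given in the sources used here, so these probes do not check the genotype.

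**Figure D1:**
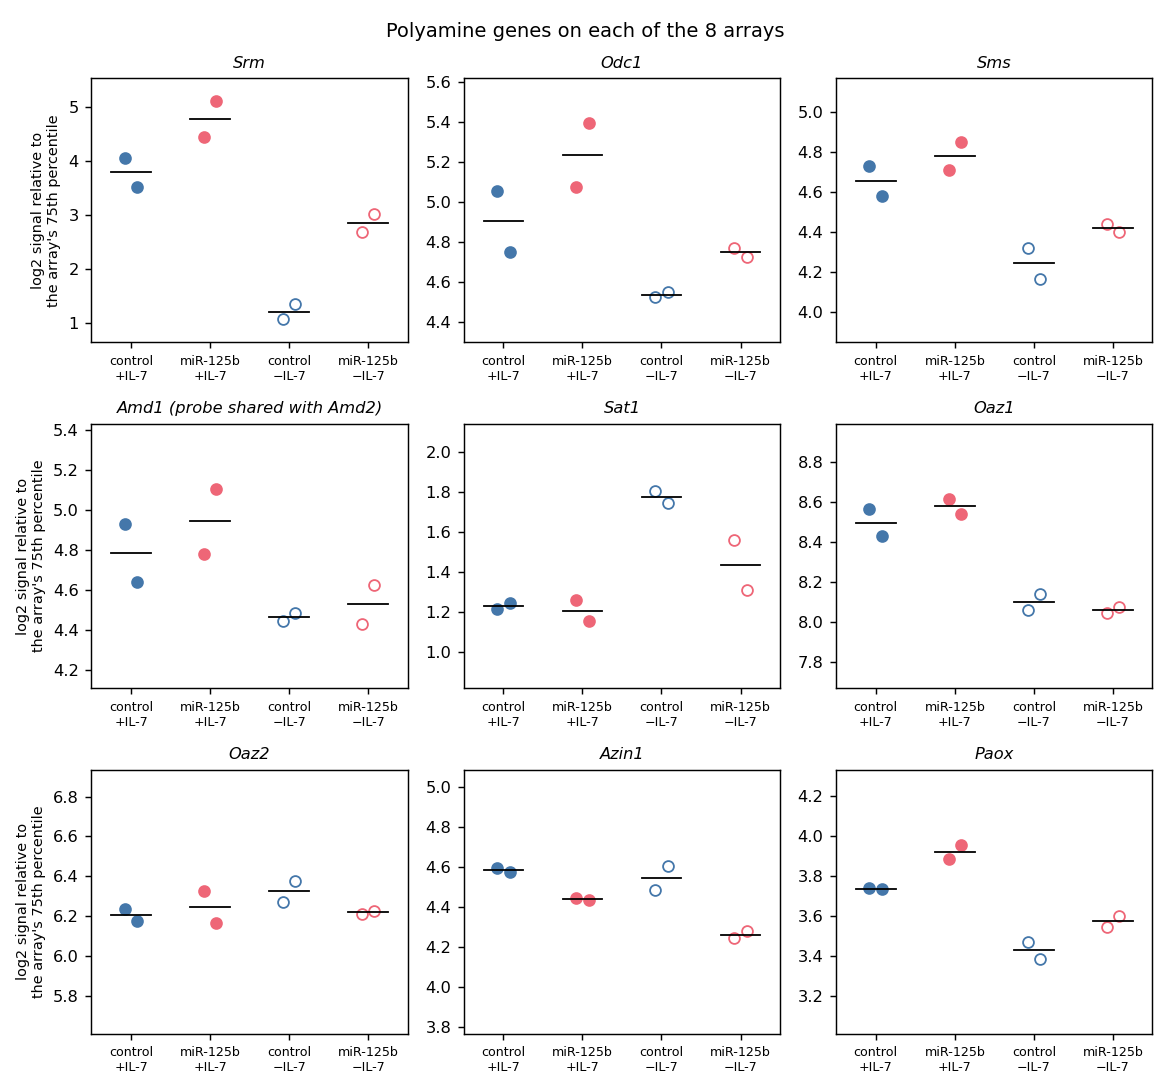
Each panel plots 1 gene, with its log2 signal relative to the array's 75th percentile on the y axis for the 2 arrays (points) and mean (line) of each group on the x axis. Srm spans 1.07 to 5.11 over the 8 arrays, while Oaz2 stays between 6.17 and 6.38.

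Whether miR-125b alters these genes in growing cells was read from the cells kept in IL-7. None of the 9 tested members passed at an adjusted p under 0.05 (limma, Benjamini-Hochberg over all genes). Of all genes 2.37% passed (1.18% higher and 1.19% lower). An unadjusted limma p under 0.05 was found for 2 members, Srm and Paox, and for 20.4% of all genes. The groups did not overlap for 4 of the 9, against 49.3% of all genes. The median difference of the members was 0.13 on the log2 scale and that of all genes −0.02.

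Among the synthesis genes, Srm, which encodes spermidine synthase (probe at mm9 chr4:147968433-147968492), stood at 4.07 and 3.52 on the control arrays and at 4.45 and 5.11 on the miR-125b arrays. Both miR-125b arrays lay above both control arrays, although the arrays within each group also lay well apart. The difference was 0.98 (SE 0.29, 95% interval 0.27 to 1.70, limma adjusted p = 0.14). Odc1, which encodes ornithine decarboxylase, the enzyme that makes putrescine (chr12:17557831-17557890), stood at 5.06 and 4.75 in control cells and at 5.07 and 5.39 with miR-125b. The higher control array and the lower miR-125b array nearly coincided, and the difference of 0.33 (SE 0.15, interval −0.03 to 0.69) had a limma adjusted p = 0.276. The other Odc1 probes gave 0.17, 0.40 and 0.40, none past the test over all probes (limma adjusted p = 0.206 or above). Sms, which encodes spermine synthase (chrX:153883630-153883689), gave 4.73 and 4.58 against 4.71 and 4.85, groups that overlapped, with a difference of 0.13 (interval −0.12 to 0.37). Its probe at chrX:153881886-153881945 gave 0.40 without overlap (limma adjusted p = 0.0763 over all probes). The remaining Sms probe gave 0.10, with overlap. Amd1/Amd2, for S-adenosylmethionine decarboxylase (chr10:40007295-40007354), gave 4.93 and 4.64 against 4.78 and 5.11, also overlapping, with a difference of 0.16 (interval −0.22 to 0.54).

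By their representative probes, the regulators of ornithine decarboxylase lay close together in the 2 groups. Oaz1, the main antizyme (chr10:80291975-80292035), read 8.57 and 8.43 in control cells and 8.62 and 8.54 with miR-125b. Its groups overlapped and its difference was 0.08 (interval −0.12 to 0.28), with the opposite sign of −0.02 after quantile normalization. Oaz2, a second antizyme (chr9:65538045-65538104), read 6.24 and 6.18 against 6.33 and 6.17, a difference of 0.04 (interval −0.17 to 0.25). Azin1, the antizyme inhibitor (chr15:38420056-38420115), read 4.59 and 4.58 in control cells and 4.44 and 4.43 with miR-125b. Its miR-125b arrays were both the lower ones (difference −0.15, SE 0.07, limma adjusted p = 0.334). The other Azin1 probes gave −0.27, without overlap, and −0.09, with overlap. The second Oaz2 probe gave 0.12 without overlap, and the second Oaz1 probe −0.02 with overlap. None of these probes passed (limma adjusted p = 0.137 or above over all probes).

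Of the catabolic genes, Sat1, the spermidine/spermine acetyltransferase (chrX:151647856-151647915), stood at 1.21 and 1.25 in control cells and at 1.26 and 1.16 with miR-125b. The groups overlapped, with a difference of −0.02 (interval −0.28 to 0.23) that became 0.07 when arrays were scaled to the median. Paox, the oxidase that acts on acetylated polyamines (chr7:147320174-147320233), stood at 3.74 and 3.73 in control cells and at 3.89 and 3.96 with miR-125b. Both miR-125b arrays were the higher ones, and the difference of 0.19 (SE 0.07, interval 0.01 to 0.37) had a limma adjusted p = 0.234.

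Without IL-7, the same comparison of vectors called 1 of the 9 members, against 6.46% of all genes (2.87% higher and 3.59% lower). The unadjusted limma p was under 0.05 for 3 members and for 25.4% of all genes. Groups did not overlap for 7 of the 9, against 61% of all genes, and the median difference of the members was 0.06 against −0.02 over all genes. The called member was Srm. It stood at 1.07 and 1.35 on the control arrays and at 2.69 and 3.03 on the miR-125b arrays, so every miR-125b array exceeded every control array by more than either group's spread. Srm rose by 1.65 (SE 0.29, 95% interval 0.94 to 2.36, limma adjusted p = 0.0342), which is 3.13-fold. Its second probe, at chr4:147968254-147968313, read 0.70 and 0.93 against 2.45 and 2.57, a rise of 1.70 (adjusted p = 0.0303 over all probes, of which 4.91% were called). The call was lost in 6 of 20 other settings, among them whenever 1 of the 4 arrays without IL-7 was left out (1.48 to 1.81, adjusted p up to 0.174), and the adjusted p was 0.0738 with no filter on dim probes and 0.0661 with the replicate number as a block.

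The other synthesis genes gave smaller differences without IL-7 and did not pass. Odc1 read 4.52 and 4.55 in control cells and 4.77 and 4.72 with miR-125b, with no overlap, and a difference of 0.21 (interval −0.15 to 0.57, limma adjusted p = 0.42). Sms read 4.32 and 4.17 against 4.44 and 4.40, also without overlap, a difference of 0.18 (interval −0.07 to 0.42). Amd1/Amd2 read 4.44 and 4.49 against 4.43 and 4.63, overlapping, a difference of 0.06 (interval −0.32 to 0.44).

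Azin1 and Sat1 were the members with the most negative values in this comparison. Azin1 read 4.48 and 4.61 in control cells and 4.24 and 4.28 with miR-125b, a difference of −0.29 (SE 0.07, interval −0.47 to −0.10, limma adjusted p = 0.0812). Sat1 read 1.81 and 1.75 in control cells and 1.56 and 1.31 with miR-125b, a difference of −0.34 (SE 0.10, interval −0.59 to −0.09, limma adjusted p = 0.114). For both genes the miR-125b arrays lay wholly below the control arrays by the representative probe. The other 2 Azin1 probes gave −0.037 and −0.025, each with overlapping groups. Paox read 3.47 and 3.38 against 3.55 and 3.60 (difference 0.15, interval −0.03 to 0.33). Oaz2 read 6.27 and 6.38 against 6.21 and 6.23 (−0.11), and Oaz1 8.06 and 8.14 against 8.05 and 8.08 (−0.04). The last 2 signs turned with median scaling, to 0.09 and 0.16.

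Averaged over the 2 IL-7 conditions, which shares the arrays of the comparisons above, 2 of the 9 members were called. Of all genes 15.8% were called (7.69% higher and 8.09% lower). The unadjusted limma p was under 0.05 for 5 members and for 32.8% of all genes. Srm rose by 1.32 (SE 0.20, interval 0.81 to 1.82, limma adjusted p = 0.0141, 2.49-fold). The call was lost without control without IL-7 replicate 1 (adjusted p = 0.0571) and without miR-125b without IL-7 replicate 2 (adjusted p = 0.0554). Azin1 fell by 0.22 (SE 0.05, interval −0.34 to −0.09, limma adjusted p = 0.0447), or 1.16-fold. Its call was lost in 14 of 19 other settings, and its other 2 probes gave −0.15 and −0.06. Odc1 differed by 0.27 (interval 0.02 to 0.53, adjusted p = 0.132), Paox by 0.17 (adjusted p = 0.0852), Sms by 0.15 (adjusted p = 0.196) and Sat1 by −0.18 (adjusted p = 0.15), and none of these limma tests passed. The 3 Sms probes differed among themselves, since the one at chrX:153881886-153881945 rose by 0.36 (adjusted p = 0.017 over all probes, of which 13.8% were called) while the others gave 0.15 and 0.10. Amd1/Amd2 (0.11), Oaz1 (0.02) and Oaz2 (−0.03) were the smallest.

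**Figure D2:**
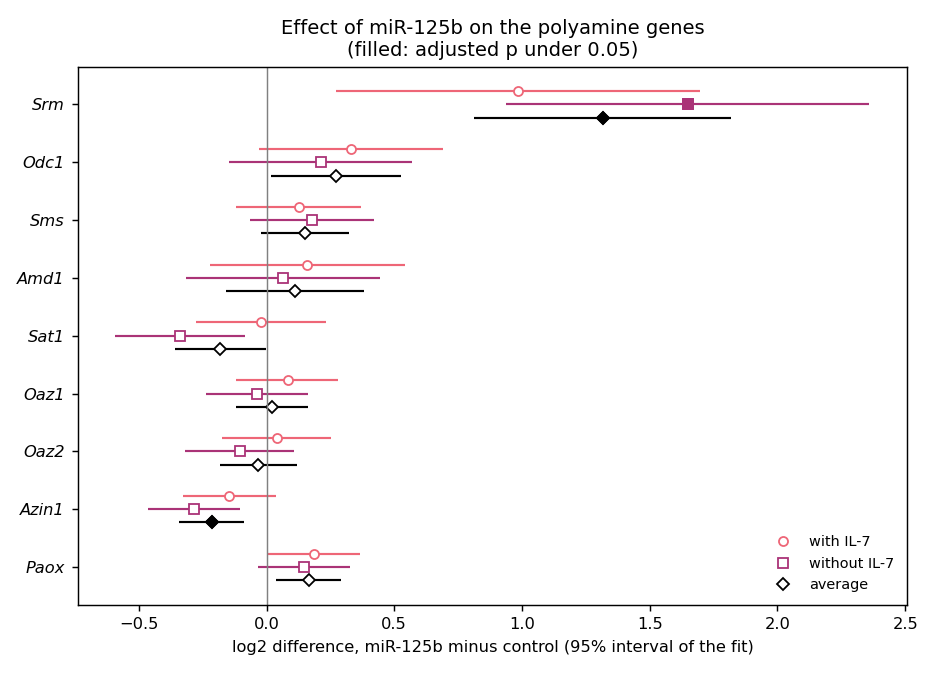
For each gene the x axis gives the log2 difference between miR-125b and control cells with its 95% interval, with IL-7 (circles), without IL-7 (squares) and on average (diamonds), filled where the adjusted p was under 0.05. Srm lies to the right of 0 in all 3, at 0.98, 1.65 and 1.32, whereas the other genes lie between −0.34 and 0.33.

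The response to 24 h without IL-7 was read first in control cells. Here 5 of 9 members were called, 1 higher and 4 lower, where 54.5% of all genes were called, 19.5% higher and 35% lower. The members' share is thus near that of all genes. Groups did not overlap for 8 of the 9, against 81.2% of all genes, and the median difference was −0.32 for the members and −0.14 for all genes. In miR-125b cells 5 of 9 were called, all lower, against 53.7% of all genes (18.6% higher and 35.1% lower). There 8 of 9 did not overlap, against 80.3% of all genes, and the medians were −0.36 and −0.15. The balance of higher and lower calls on withdrawal differed with the scaling of the arrays. For the members in control cells it was 1 higher and 4 lower as scaled here, 4 higher and 1 lower both after quantile normalization and in the authors' deposited table, and 0 higher and 7 lower with median scaling. In miR-125b cells it was 0 higher and 5 lower, 1 and 1 in both of the former, and 0 and 7 with median scaling. Signals at the 75th percentile ran from 275.8 to 314.0 with IL-7 and from 515.0 to 620.5 without. Of all genes in control cells, 4030 were called higher and 7238 lower with the scaling used here, 4883 and 5782 after quantile normalization, 2118 and 10692 with median scaling, 3392 and 9720 after normexp background correction, and 4876 and 5769 in the authors' deposited table. In miR-125b cells these pairs were 3837 and 7264, 4648 and 5071, 2397 and 9224, 3091 and 10357, and 4684 and 5050. Median scaling moved the median of all genes to −0.47 in control cells and −0.37 in miR-125b cells, and quantile normalization to −0.04 and −0.03.

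Srm was the member with the greatest response to withdrawal. In control cells it fell from 4.07 and 3.52 to 1.07 and 1.35, with no overlap, a change of −2.58 (SE 0.29, interval −3.29 to −1.87, limma adjusted p = 0.00175), or 5.99-fold lower. In miR-125b cells it fell from 4.45 and 5.11 to 2.69 and 3.03, a change of −1.92 (SE 0.29, limma adjusted p = 0.00382), or 3.78-fold lower. Its second probe gave −2.65 and −1.79. Srm was called lower in 20 of 20 other settings in each cell type, with values from −2.91 to −2.31 and from −2.25 to −1.59, and it was the only member for which that held in both.

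The synthesis genes Sms and Odc1 gave lower values without IL-7, by less than Srm and with calls that depended on the scaling. Sms fell by 0.41 in control cells (SE 0.10, limma adjusted p = 0.0162) and by 0.36 in miR-125b cells (adjusted p = 0.0256), and quantile normalization left −0.16 (adjusted p = 0.192) and −0.05. Its 3 probes read between −0.34 and −0.45. The representative probe of Odc1 differed by −0.37 in control cells (SE 0.15, limma adjusted p = 0.0762) and fell by 0.49 in miR-125b cells (adjusted p = 0.0338, lost in 12 of 20 other settings). Quantile normalization left −0.10 and −0.17.

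Odc1 and Amd1/Amd2 each had probes that differed from the representative one. The 4 Odc1 probes gave −0.37, −0.43, −0.55 and −0.59 in control cells and −0.49, −0.56, −0.67 and −0.70 in miR-125b cells. Of these probes, 3 overlap within chr12:17557831-17557928 and so share sequence. The remaining one, at chr12:17554799-17554858, still fell after quantile normalization, by 0.52 (limma adjusted p = 0.0239 over all probes) and by 0.60 (adjusted p = 0.0177). The overlapping probe at chr12:17557869-17557928 also still fell, by 0.50 (limma adjusted p = 0.0446) and by 0.60 (adjusted p = 0.029). As scaled here, these same probes were called in control cells too (limma adjusted p = 0.0182 and 0.0377 over all probes). The others did not pass after quantile normalization. For Amd1/Amd2 the representative probe gave −0.32 (adjusted p = 0.127 over all genes) and −0.42 (adjusted p = 0.0646). The probe at chr10:40009136-40009195 fell from 3.53 and 2.89 to 1.88 and 1.88 in control cells and from 3.50 and 3.64 to 1.90 and 2.06 in miR-125b cells, changes of −1.33 and −1.59. These remained −1.19 (adjusted p = 0.00524 over all probes) and −1.43 (adjusted p = 0.00403) after quantile normalization. The probe at chr10:40008676-40008735, which lists the Amd2 but not the Amd1 accession, fell by 0.96 and by 0.94. Over all probes, 51.5% were called on withdrawal in control cells and 50% in miR-125b cells.

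**Figure D3:**
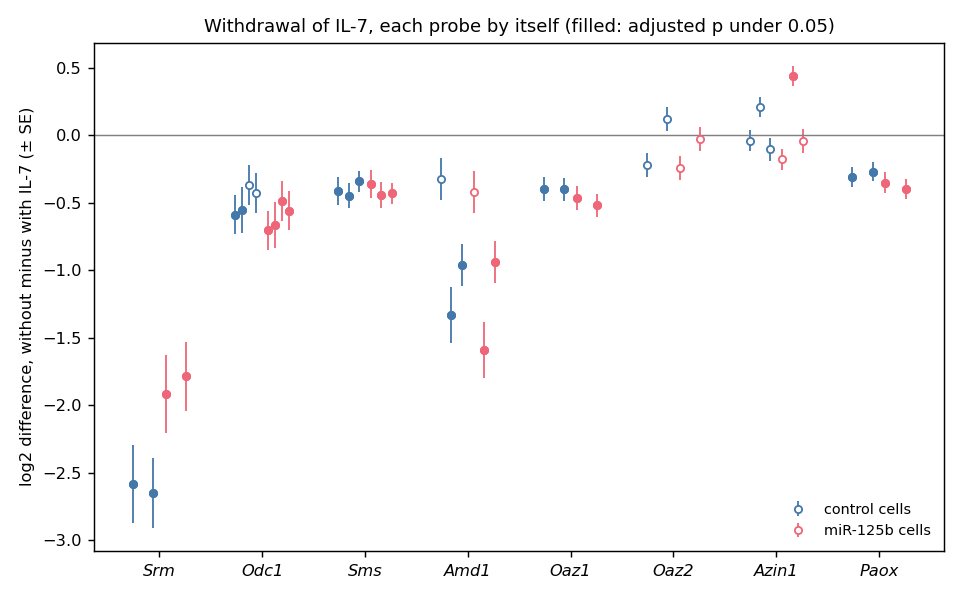
The y axis gives the log2 difference on withdrawal of IL-7 with its SE for each probe by itself, in control cells (blue) and miR-125b cells (red), for the genes with more than 1 probe on the x axis, filled where the adjusted p over all probes was under 0.05. The Amd1/Amd2 probes spread from −0.32 to −1.33 in control cells, the Azin1 probes lie on both sides of 0, and the 2 Srm probes lie at −2.58 and −2.65.

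The antizymes and the antizyme inhibitor gave no direction that held under all scalings. Oaz1 went from 8.57 and 8.43 to 8.06 and 8.14 in control cells and from 8.62 and 8.54 to 8.05 and 8.08 in miR-125b cells, without overlap. It fell by 0.40 (SE 0.08, limma adjusted p = 0.00911) and by 0.52 (SE 0.08, adjusted p = 0.00421) as scaled here, but quantile normalization turned these to 0.31 (adjusted p = 0.0177) and 0.22 (adjusted p = 0.0566). Oaz2 differed by 0.12 and −0.03, neither past the test, and by 0.49 (adjusted p = 0.00544) and 0.39 (adjusted p = 0.0125) after quantile normalization. The second Oaz2 probe, at chr9:65535779-65536685, gave −0.22 and −0.24 as scaled here, neither past the limma test (adjusted p = 0.0784 and 0.0622 over all probes). Azin1 differed by −0.04 and −0.18, and by 0.22 (adjusted p = 0.0334) and 0.10 after quantile normalization. Its probe at chr15:38417343-38417402 gave 0.21 and 0.44 (the second limma adjusted p = 0.00565 over all probes) where the other 2 gave between −0.18 and −0.04. That probe was the dimmest of the Azin1 probes, reading −2.42 to −1.89 over the arrays where the representative one read 4.24 to 4.61. It was well above background on all 8 arrays.

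Sat1 was the only member called higher without IL-7 by its representative probe as scaled here. In control cells it rose from 1.21 and 1.25 to 1.81 and 1.75, with both arrays above, by 0.55 (SE 0.10, interval 0.29 to 0.80, limma adjusted p = 0.00702, 1.46-fold). The call held in 19 of 20 other settings and was lost with median scaling (0.22, adjusted p = 0.205). In miR-125b cells Sat1 went from 1.26 and 1.16 to 1.56 and 1.31, a difference of 0.23 (interval −0.02 to 0.48, limma adjusted p = 0.107). Paox fell by 0.31 (SE 0.07, limma adjusted p = 0.0152) and by 0.35 (SE 0.07, adjusted p = 0.0103) in the 2 cell types, with −0.14 (adjusted p = 0.133) and −0.12 after quantile normalization.

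**Figure D4:**
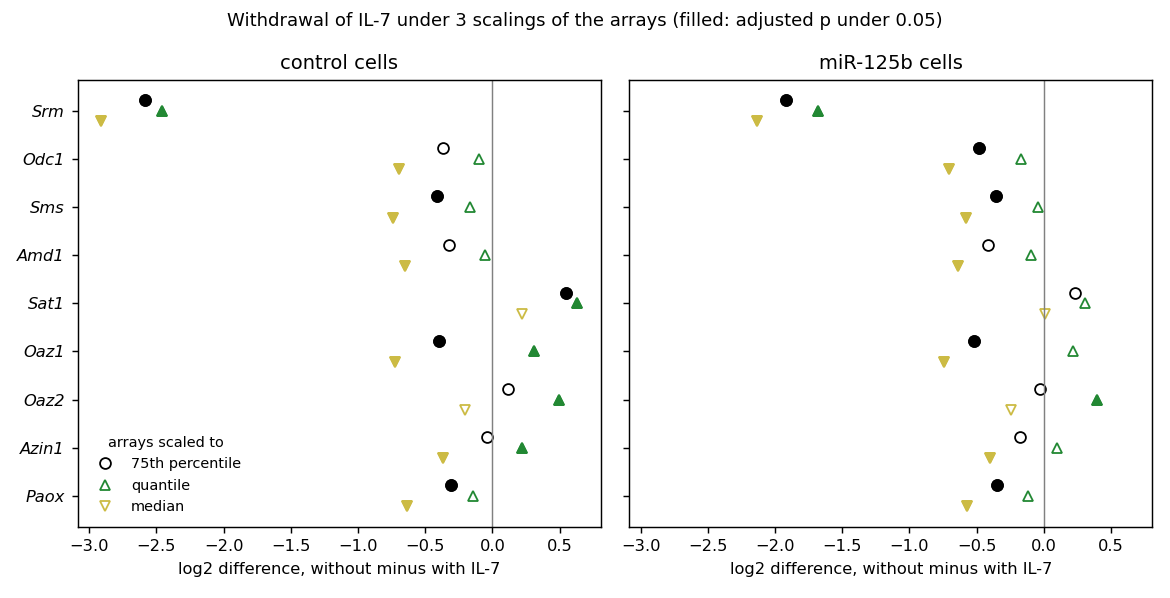
The x axis gives the log2 difference on withdrawal of IL-7 for each gene in control cells (left) and miR-125b cells (right) under 3 scalings of the arrays: to the 75th percentile (circles), by quantiles (up triangles) and to the median (down triangles), filled where the adjusted p was under 0.05. Srm lies at −1.68 or below under each, while Oaz1 in control cells lies at −0.40, 0.31 and −0.73 in that order of scalings.

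Whether miR-125b alters the response to withdrawal was tested as the difference between the 2 responses. None of the 9 members passed with limma, and 0% of all genes (0 of 20674) passed. The unadjusted limma p was under 0.05 for 0 members and for 5.94% of all genes. Srm gave 0.67 (SE 0.41, interval −0.34 to 1.67, adjusted p = 0.945) and Sat1 −0.32 (SE 0.15, interval −0.67 to 0.04, adjusted p = 0.878). These intervals are wide and do not show that the responses were alike.

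The other genes that feed or use polyamines were taken from 5 lists of 32 genes besides the members, of which 21 were tested. With IL-7, limma called 0 of the 21 between the vectors, and 8 had an unadjusted p under 0.05, as did 20.4% of all genes. Without IL-7, miR-125b cells had 2 higher and 1 lower, against 6.46% of all genes called, and in the average 5 were higher and 2 lower, against 15.8%. Their medians in the 3 comparisons were 0.12, 0.13 and 0.13, against −0.02 for all genes in each. Ass1, argininosuccinate synthase of arginine synthesis, read −0.02 and 0.19 in control cells without IL-7 and 1.22 and 1.32 with miR-125b, with no overlap, and rose by 1.19 (limma adjusted p = 0.0193, lost in 4 of 20 other settings). Its rise on average was 0.94 (adjusted p = 0.00786), called in 19 of 19 other settings. Mtap, which clears the methylthioadenosine released by Srm and Sms, read 0.52 and 0.64 against 1.25 and 1.49 and rose by 0.80 (adjusted p = 0.0326), although this call was lost in 9 of 20 other settings. Mat2b, the regulatory subunit of methionine adenosyltransferase, fell by 0.44 (adjusted p = 0.0265, lost in 8 of 20). The average also called Aldh18a1 (0.47), Mri1 (0.46) and Enoph1 (0.36) higher and Eif5a2 (−0.36) lower, calls lost in 7, 9, 9 and 8 of 19 other settings.

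On withdrawal of IL-7, 18 of the 21 related genes were called lower in control cells and 13 in miR-125b cells, with none higher, against 35% and 35.1% of all genes called lower. Their medians were −0.44 and −0.45, against −0.14 and −0.15 for all genes. The count was 11 lower and 1 higher (Mat2b) in control cells after quantile normalization, and 10 lower and 1 higher (Mat2b) in miR-125b cells. The 4 genes of hypusination, the modification of eIF5A made from spermidine, were all called lower in each cell type. Eif5a went from 6.84 and 6.54 to 5.27 and 5.37 in control cells and from 6.82 and 7.05 to 5.57 and 5.67 in miR-125b cells, and fell by 1.37 (limma adjusted p = 0.00152) and by 1.32 (adjusted p = 0.00185). Dohh fell by 0.78 and 0.77, Eif5a2 by 0.71 and 0.70, and Dhps by 0.44 and 0.45, where only Dhps lost its call in other settings (4 and 3 of 20). Among genes of methionine use and methylthioadenosine salvage, 7 and 5 of 8 were lower, led by Mri1 (−1.28 and −1.22), Enoph1 (−1.04 and −1.21) and Ahcy (−0.86 and −0.92). Of 5 tested genes of ornithine supply and use, 4 and 2 were lower, among them Ass1 (−1.73 and −1.24) and Agmat (−0.936 and −1.004). Of 4 transport genes, 3 and 2 were lower: Slc7a1, an arginine transporter (−0.57 and −0.42), Atp13a2, a lysosomal polyamine exporter (−0.41 and −0.45), and in control cells Slc3a2 (−0.44). After quantile normalization none of these passed: Slc7a1 read −0.31 and −0.10, Atp13a2 0.004 and −0.03, and Slc3a2 −0.17. None of the 3 genes for other antizymes and acetyltransferases (Oaz3, Sat2 and Satl1) was tested, because none passed the filter.

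Myc, a known regulator of Odc1, read 3.67 and 3.10 in control and 3.94 and 4.47 in miR-125b cells with IL-7, and 1.19 and 1.33 against 2.58 and 2.85 without it. It differed by 0.82 with IL-7 (limma adjusted p = 0.151) and rose by 1.46 without IL-7 (adjusted p = 0.0333, lost in 6 of 20 other settings). On withdrawal it fell by 2.12 (adjusted p = 0.00193) and by 1.49 (adjusted p = 0.00519), in 20 of 20 other settings each. Its partner Max differed between vectors by 0.23 and 0.10, neither past the test, and fell on withdrawal by 0.35 (adjusted p = 0.0318, lost in 12 of 20) and by 0.48 (adjusted p = 0.0113, lost in 4 of 20).

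**Figure D5:**
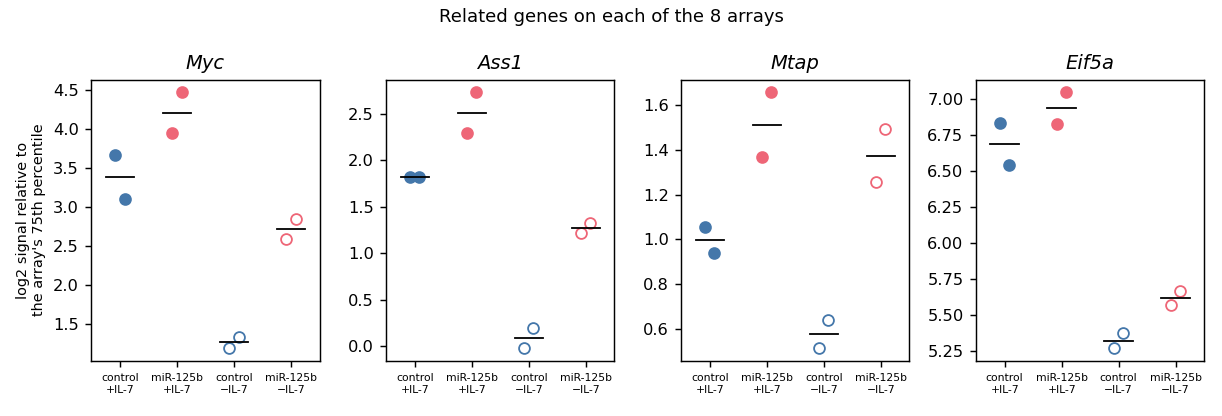
Each panel plots 1 related gene, with its log2 signal relative to the array's 75th percentile on the y axis for the 2 arrays (points) and mean (line) of each group on the x axis. Myc stands at 1.19 to 1.33 in control cells without IL-7 and at 2.58 or above in the other groups, and Eif5a stands below 5.67 without IL-7 and above 6.54 with it.

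Patterns over the 8 arrays were compared with those of 11865 genes besides the members. These genes had a gene symbol and were well above background on all arrays. The genes most like Srm were Ttc27 (Pearson r = 0.9995), Pus7 (0.9993) and Tsr1 (0.9989). For Odc1 they were Tmem33 (0.9932), Gm15645 (0.9899) and Hspa5 (0.9897). These values describe 8 arrays in 4 groups and 2 slides, so genes that share a group pattern score high.

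Among the marker lists of other cells, the ranges of the plasma cell list and of the T and NK list overlapped between no groups. Those of the erythroid, myeloid and stromal lists overlapped between some groups. Each list was summed over the signals of its measured genes, so that the brightest gene weighs most. The plasma cell list, with 4 of 5 well above background in each group, summed to 4.74 to 4.81 in control and 5.08 to 5.16 in miR-125b cells with IL-7, and to 5.42 to 5.45 and 5.55 to 5.57 without. Its genes went different ways on withdrawal. In control cells Irf4 read 3.33 and 3.50 with IL-7 and 4.93 and 4.93 without, and Prdm1 −0.08 and −0.05 against 0.62 and 0.34. Sdc1 read −0.25 and −0.34 against −2.10 and −1.79, and Xbp1 4.02 and 3.78 against 3.42 and 3.54. Of 7 T and NK markers, 3 were well above background with IL-7 (summed 2.35 to 2.39 in control and 2.13 in miR-125b cells) and 4 without (2.76 to 2.79 and 2.71 to 2.73). Cd8a was well above background on 4 arrays, all without IL-7, while Cd3e read 0.97 and 0.84 with IL-7 and −0.54 and −0.57 without in control cells, and Cd4 1.57 and 1.59 against 1.15 and 1.25. Of 5 erythroid markers 2 were above background, summed to −2.83 to −2.61 in control and −2.55 to −2.00 in miR-125b cells with IL-7, and to −2.32 to −2.00 and −1.72 to −1.55 without. Of 7 myeloid markers 3 or 4 were above background (3.66 to 4.04 over all groups) and of 5 stromal markers 0 or 1 (−4.24 to −3.55). The pre-B list summed to 10.82 to 10.86 with IL-7. Without IL-7 it summed to 10.533 to 10.545 in control and 10.499 to 10.502 in miR-125b cells. Its genes also went different ways on withdrawal. In control cells Vpreb1 read 9.59 and 9.52 with IL-7 and 8.97 and 8.83 without, while Rag2 read 1.24 and 1.18 against 3.06 and 3.30. The part of these marker lists in the vector and withdrawal values of the polyamine genes was not tested.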

How the data were processed

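Total RNA (100 ng per sample) was labelled with Cy3, per the labels. Per the file headers, the scanner files deposited for each array hold a processed spot intensity, background-subtracted and not normalized between arrays, mean and background intensity, and marks of another kind (0 or 1: well above background, saturated, not uniform). Feature Extraction was version 10.7.3.1 with IL-7 but 10.7.1.1 without, per the file headers, and the submitters' processing notes name 10.7.1.1. The authors also deposited a table of linear intensity, used as an alternative.

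The 3671 control spots among 62976 were removed and spots of a probe averaged. Values were log2 intensity minus the array's log2 75th percentile, with no pseudocount. Of 55681 probes, 58 marked not uniform were dropped. Names came from RefSeq accessions (27209 probes), symbols (3575) or synonyms (564), and 24275 kept the name in the files. A gene stood by its kept probe with the highest mean. Differences were tested two-sided with limma 3.58.1 under R 4.3.3 (package data.table, version 1.17.8) in 1 model of 4 group means over 8 arrays (4 residual degrees of freedom, prior 1.82), with Benjamini-Hochberg adjustment over all genes of a comparison. The tests were also run on simulated data. With 2 arrays a group, the number of arrays limits the precision, and p-values measure only the spread between these samples.

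The members, related lists and marker lists were chosen with earlier results of these data known. Named are all members with all probes, Myc and Max, up to 4 called genes of largest difference per related list and comparison, and the 3 genes most like Srm and Odc1, with other genes named only to complete a count. Alternatives were the background correction, scaling, filter, probe rule, authors' table of values, a mean-variance trend, only the arrays compared, the replicate block and leaving out each array. Quantile normalization and the authors' table gave nearly the same member values on withdrawal, so they do not count as separate checks. Replicate numbers were checked for pairing: deviations of same-numbered arrays correlated at −0.098 to 0.113, so the numbers were not taken to pair samples. There were 0 columns of samples from other series.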

Additional observations from a re-analysis of the deposited data

How the results depend on the processing

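Each group holds 2 arrays, which limits the precision, and a call near the threshold can turn on 1 array. Srm was called lower on withdrawal in all 20 other settings in each cell type. Its call on miR-125b without IL-7 held in 14 of 20. The members called were 0 between vectors with IL-7, 1 without, 2 on average, then 5 on withdrawal in control and 5 in miR-125b cells, and 0 for the difference, the order kept here. Normexp background correction gave 1 with IL-7 and 1 on average. Leaving dim probes in gave 0 without IL-7, 1 on average and 3 on withdrawal in miR-125b cells, a setting that adds genes to the adjustment. Averaging a gene's probes and testing every probe each gave 1 on average. Quantile normalization and the deposited table each gave 2 on withdrawal in miR-125b cells, and a percentile over probes detected on all arrays gave 3. A mean-variance trend gave 1 with IL-7 and 3 without. With the replicate number as a block, the counts were 0, 0, 1, 5, 4 and 0. The block left 453 genes called without IL-7 (1336 without the block) and 2141 on average (3261). Leaving out 1 array in turn gave 0 to 0, 0 to 1, 0 to 1, 3 to 6, 2 to 6 and 0 to 0, assuming that a lone array varies like the other groups. On average the count was 0 without replicate 1 of control or replicate 2 of miR-125b, both without IL-7. On withdrawal in control cells it was 3 without replicate 1 with IL-7 or replicate 2 without IL-7. On withdrawal in miR-125b cells it was 2 without replicate 2 with IL-7 or replicate 1 without IL-7.

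Signs also turned, among them those of Oaz1 and Atp13a2 on withdrawal, which were called lower as scaled here, and the cause was not tested. On withdrawal, quantile normalization gave Oaz1 0.308 and 0.215 in control and miR-125b cells, Azin1 0.221 and 0.096, Oaz2 0.394 in miR-125b cells and Atp13a2 0.004 in control cells. The deposited table gave Oaz1 0.314 and 0.223, Azin1 0.22 and 0.096, Oaz2 0.40 and Atp13a2 0.008. Normexp gave Azin1 0.10 in control and Oaz2 0.121 in miR-125b cells. A percentile over probes detected on all arrays gave Azin1 0.114 and 0.025 and Oaz2 0.178 in miR-125b cells. The mean of a gene's probes gave Azin1 0.024 and 0.074 and Oaz2 −0.05 in control cells, where median scaling gave Oaz2 −0.207. Between vectors, quantile normalization gave Oaz1 −0.024 with IL-7 and −0.071 on average, and the deposited table −0.025 and −0.071. Median scaling gave Sat1 0.066 with IL-7, Oaz1 0.156 and Oaz2 0.089 without, and Oaz2 0.109 on average, while the mean of probes gave Oaz1 −0.015 and Oaz2 0.038 on average. Leaving out 1 array gave, with IL-7, −0.003 to 0.322 for Amd1/Amd2, −0.074 to 0.029 for Sat1 and −0.041 to 0.121 for Oaz2. Without IL-7 it gave −0.033 to 0.161 for Amd1/Amd2 and −0.078 to 0.001 for Oaz1, and on average −0.012 to 0.055 for Oaz1 and −0.073 to 0.008 for Oaz2. On withdrawal it gave −0.10 to 0.022 for Azin1 in control cells and −0.107 to 0.055 for Oaz2 in miR-125b cells. The settings for related genes, and quantile values of single probes, were chosen after seeing the data.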
